A study of Homo sapiens with 6 samples.

Results

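The genes described here are ion channel genes and their partners, chosen by symbol from the deposited gene table: symbols that start with KCN, with CACNA, CACNB or CACNG, with SCN and a digit, with TRPC, TRPM or TRPV and a digit, with CLCN, or with ANO and a digit, together with PIEZO1 and PIEZO2. Another 3 symbols that end in -AS or -IT with a number, which name antisense or intronic transcripts, were left out. That gave 117 of the 18539 genes listed: 58 of the potassium family, 19 of the calcium family, 8 of the sodium family, 14 of the TRP (transient receptor potential) family, 16 of the chloride and anoctamin family, and both Piezo genes. The symbol alone decided membership, so CLC exchangers and anoctamins that scramble lipids are counted among the channel genes here. A further 2 of the 117 belong to no channel protein family. They are KCNQ1OT1, a noncoding RNA transcribed from within the KCNQ1 gene, and TRPC4AP, a protein named for binding TRPC4.

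Ion channels are membrane proteins that let chosen ions run down their gradients. Potassium channels hold the membrane potential negative and so keep up the driving force for calcium entry. Voltage-gated calcium and sodium channels open on depolarization and are best known from nerve and muscle, where auxiliary subunits set their traffic and gating. TRP and Piezo channels pass cations, many of them calcium, in answer to lipids, temperature, cell swelling or stretch, while anoctamins and CLC proteins carry chloride or, in some cases, scramble lipids or exchange chloride for protons. In melanoma cells, calcium-activated potassium channels, TRP channels and Piezo proteins have been studied in growth and migration.

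The tested cells (shMMP9, 3 libraries) were A375, a human malignant melanoma line with an activating BRAF mutation, infected with a pLKO.1 lentivirus that carries a short hairpin RNA against the coding sequence of MMP9. The cells they were set against (shControl, 3 libraries) were A375 infected with a control hairpin, whose sequence the labels do not give. All 6 libraries came from cells kept under puromycin at 2 µg/ml for 2 weeks, so both groups carry a lentiviral insert and passed through selection. A single hairpin was used against MMP9, and the labels do not say whether replicates were grown apart, so p-values speak only for the spread among these libraries, which may be technical.

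The libraries held 21854115 to 28005538 estimated reads in the listed genes. Replicates of a group differed by more than counting noise, most of all shControl replicates 1 and 2 (mean chi-square per gene 14.1, against 2.51 for the closest pair). MMP9, a secreted gelatinase, was at 16.2, 14.6 and 17.1 scaled counts in shMMP9 replicates 1 to 3, against 26.1, 24.3 and 28.7 in shControl, a log2 change of -0.69 (SE 0.0847, adjusted p = 1.25e-05), so its RNA was lowered and still present. Mitochondrially encoded genes (symbols in MT-) took 0.617 to 0.708% of reads in shMMP9 and 1.64 to 1.79% in shControl, and the part of that difference in the results below was not tested. Of 15 markers of the melanoma and melanocyte lineage, 13 were listed, 6 rose and 3 fell, and they summed to 2100 to 2189 scaled counts in shMMP9 and 1408 to 1535 in shControl. Among them SOX10, a lineage transcription factor, averaged 785 scaled counts in shMMP9 and 378 in shControl, while the pigment genes PMEL, MLANA and TYRP1 stood at or below 1.76 on average in either group and TYR and DCT were not listed. The 3 that fell were MITF (27.7 in shMMP9, 35.5 in shControl), SOX9 (0.923 and 28.8) and AXL (283 and 661).

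Levels are given as scaled counts (reads per gene scaled by the authors so that each library has the same upper quartile), in the order of replicates 1 to 3, and means carry their SD over the 3 libraries of a group. A change is the shMMP9 mean minus the shControl mean of log2(scaled count + 1), a scale that compresses the change of weak genes. It was tested with limma over all 17194 genes with enough reads, and a gene is said to have risen or fallen where its Benjamini-Hochberg adjusted p was under 0.05. These are whole cultures, so fewer cells that express a gene and less RNA per cell cannot be told apart.

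In shMMP9 cells more ion channel genes fell than rose. Of the 104 with enough reads to test, 48 (46.2%) fell, 22 (21.2%) rose and 34 were not called. Among all genes tested 32.5% fell, 25% rose and 57.5% were called in either direction. The count of rises was thus near that background and the count of falls lay above it. The same shares are the background for each family and class counted below. By family, 68% of potassium, 61.1% of calcium, 83.3% of sodium, 84.6% of TRP and 46.7% of chloride and anoctamin genes tested were called. The chloride and anoctamin share lay below that of all genes tested. The median change of the tested channel genes was -0.17, against -0.05 for all genes tested. Past a 2-fold change, 12 fell and 7 rose, where 4.96% and 3.22% of all genes tested did. The values of the 3 shMMP9 libraries lay below all 3 shControl values for 48 channel genes and above them for 24 (35.1% and 27.6% of all genes tested, 62.7% in either direction).

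**Figure D1:**
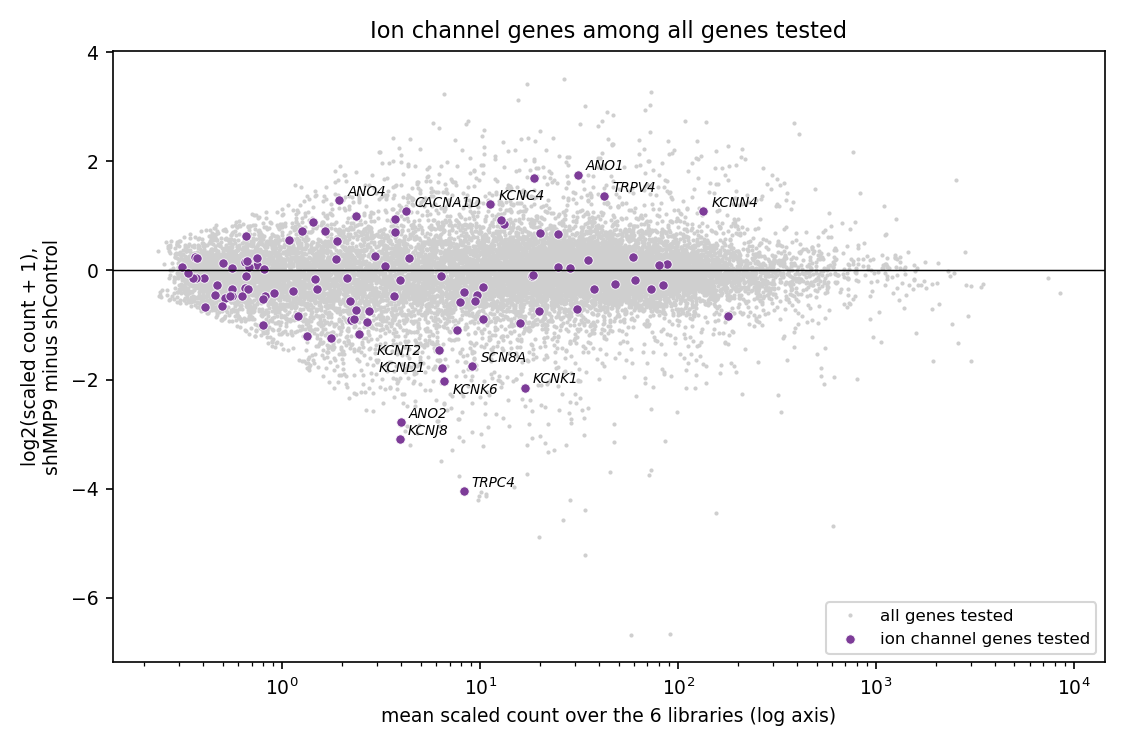
Each point is a tested gene, with its mean scaled count over the 6 libraries on a log x axis and its change in log2(scaled count + 1), shMMP9 minus shControl, on the y axis. The 104 ion channel genes (purple) sit mostly at low levels among the 17194 genes tested (grey), and run from TRPC4 at -4.05 to ANO1 at 1.76; most of the genes furthest from 0 are named.

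Most channel genes were weakly expressed, with a median mean level of 2.13 scaled counts over all 117, the 13 not tested among them. The median over all genes tested, which leaves out such weak genes, was 16.2. The calls were therefore also set beside genes of like level, a split chosen after the values were seen. Of 29 channel genes at 10 scaled counts or more, 11 (37.9%) rose and 12 (41.4%) fell, beside 30.4% and 34.4% of all genes at that level. Between 1 and 10 scaled counts, 10 (23.3%) of 43 rose and 24 (55.8%) fell, beside 20.6% and 34.5%. Below 1 scaled count, 1 (3.12%) of 32 tested rose and 12 (37.5%) fell, beside 12.2% and 21.5%. Falls outnumbered rises among the weaker channel genes, as they did among all genes at those levels. Channel genes at 10 scaled counts or more rose and fell in nearly equal number. Some weak genes that fell, among them KCNE3, KCNQ3, KCNJ8 and TRPC4, had enough reads to be tested only through their shControl libraries. The counts of weak genes are therefore descriptive. The lone rise below 1 scaled count was KCNA4, a voltage-gated potassium channel pore, at 1.14, 1.15 and 0.739 in shMMP9 and 0.143, 0.390 and 0.373 in shControl.

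**Figure D2:**
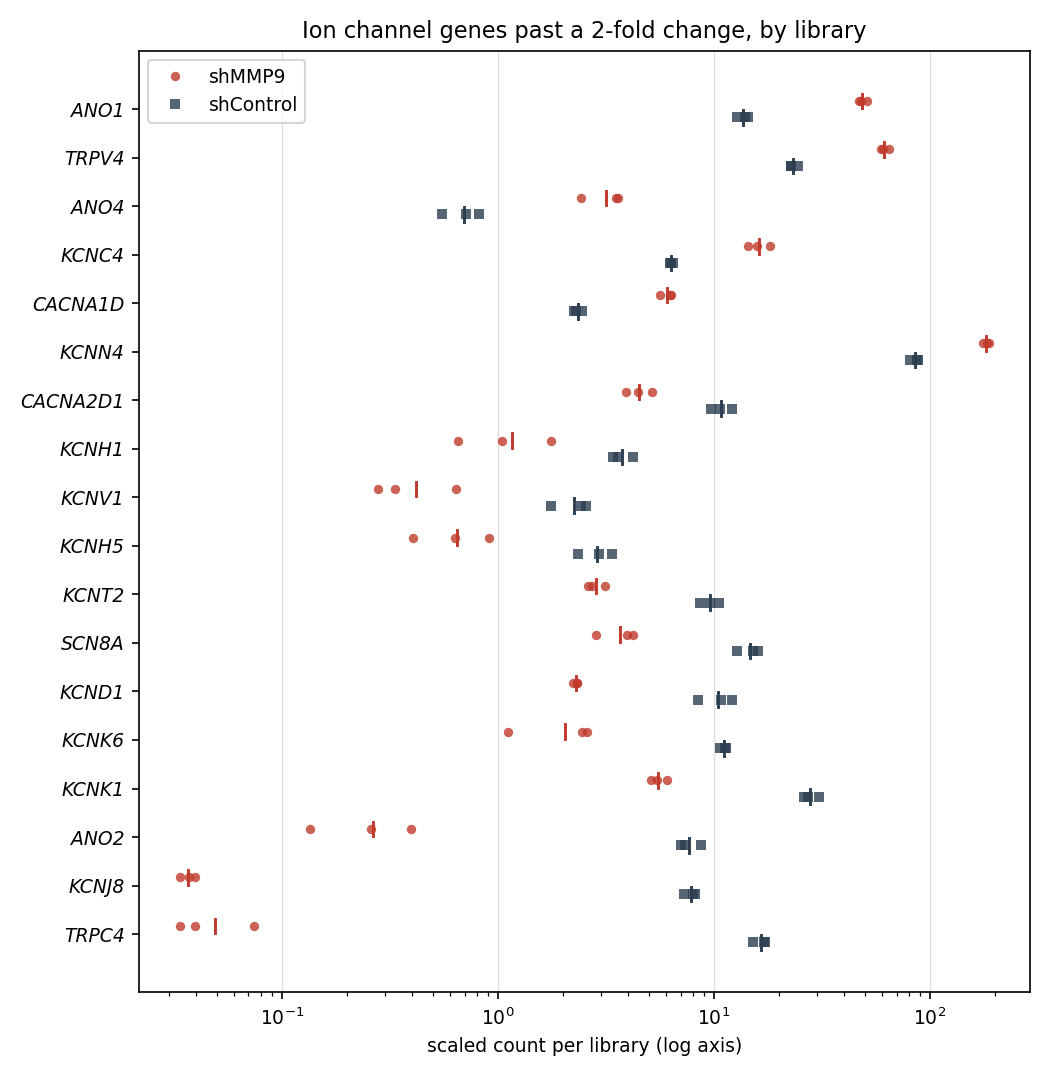
Scaled counts in each library (log x axis) for 18 of the 19 ion channel genes called with a 2-fold change or more, ordered from the largest rise (ANO1) to the largest fall (TRPC4); red circles are the 3 shMMP9 libraries, dark squares the 3 shControl libraries, and vertical ticks the group means. No gene shown has overlapping groups, and TRPC4 and KCNJ8 stand below 0.08 in every shMMP9 library.

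Potassium channels made up the largest family and moved both ways. Of 50 tested, 13 (26%) rose and 21 (42%) fell, beside 25% and 32.5% of all genes tested. By 2-fold or more, 3 rose and 8 fell. The calcium- and sodium-activated channels, which couple the membrane potential to the ions inside the cell, were called in all 5 cases tested, 3 as rises and 2 as falls; a sixth, KCNN2, was below the filter on low values. KCNN4 (ENSG00000104783.12, minus strand of GRCh38 at chr19:43766533-43781261), the intermediate-conductance calcium-activated channel, was at 183, 176 and 188 scaled counts in shMMP9, against 80.9, 87.1 and 88.4 in shControl. Its shMMP9 libraries were all above its shControl libraries, with a log2 change of 1.08 (SE 0.0512, adjusted p = 9.86e-10). KCNN3, a small-conductance channel of the same group, averaged 16.9 ± 1.09 in shMMP9 and 8.47 ± 0.25 in shControl, and KCNMA1, the pore of the large-conductance BK channel, 30.7 ± 1.49 and 18.9 ± 1.29. Both rose, by 0.92 and 0.67 on the log2 scale. Against these, KCNT2, a sodium-activated channel, was at 2.62, 3.13 and 2.73 in shMMP9 and 9.55, 8.64 and 10.6 in shControl, with no overlap (log2 change -1.47, SE 0.118, adjusted p = 2.06e-07). KCNN1, another small-conductance channel, fell by 0.56 with overlapping groups; it lost the call without shMMP9 replicate 1 or 2 or shControl replicate 2 or 3 (adjusted p up to 0.117).

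The BK channel's auxiliary subunit KCNMB4 fell (1.503 ± 0.349 in shMMP9, 3.19 ± 0.912 in shControl). KCNMB3, also a BK beta subunit, was not called; 37.9% of its exonic bases overlap PIK3CA on the other strand and its reads were fractional in every library. The counting's strand setting is not given in the sources used here, so reads of such overlapping genes cannot be told apart.

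Voltage-gated potassium channels, which repolarize excitable cells, moved both ways. Of 18 pore or pore-like subunits tested, 4 rose and 9 fell. KCNC4 (Kv3.4), a fast-gating channel, stood at 15.8, 14.4 and 18.2 in shMMP9 and at 6.24, 6.34 and 6.46 in shControl (log2 change 1.22, SE 0.101, adjusted p = 3.00e-07). KCNS3, a silent subunit that opens no pore of its own and modifies Kv2 channels, rose by 0.68, with 24.9 ± 1.27 in shMMP9 and 15.2 ± 0.919 in shControl.

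Falls among voltage-gated potassium channels included A-type, ether-a-go-go and silent subunits. KCND1 (Kv4.1), a channel of transient A-type currents, was at 2.32, 2.22 and 2.33 in shMMP9 and 8.41, 10.8 and 12.2 in shControl, with no overlap (log2 change -1.79, SE 0.133, adjusted p = 9.46e-08). Both ether-a-go-go channels fell: KCNH1 averaged 1.16 ± 0.565 in shMMP9 and 3.74 ± 0.421 in shControl, and KCNH5 0.649 ± 0.25 and 2.88 ± 0.506, log2 changes of -1.16 and -1.24. KCNH1's reads were fractional in all libraries. Of its exonic bases, 36.9% overlap a gene on the other strand and 20.1% overlap genes on its own strand, so reads may be shared. KCNV1, a silent subunit, averaged 0.416 ± 0.194 in shMMP9 and 2.25 ± 0.432 in shControl (log2 change -1.20). KCNQ3, a subunit of the M-current channel known from neurons, had an estimated 4, 8 and 1 reads in shMMP9, against 30, 24 and 17 reads in shControl. Scaled for depth it was 5.24-fold lower (exact 95% interval 2.87 to 10.3, counting error only). The silent subunit KCNG1, the highest voltage-gated potassium gene per transcript length, was at 65.0, 59.1 and 69.0 in shMMP9, against 67.1, 92.5 and 86.3 in shControl. Its groups overlapped through shControl replicate 1, and its fall of 0.33 missed the threshold without shMMP9 replicate 2 (adjusted p = 0.0544).

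Tandem-pore potassium channels carry the leak current that sets the resting potential. Of 8 tested, 2 (25%) rose and 3 (37.5%) fell, near the 25% and 32.5% of all genes tested. KCNK1 (TWIK-1; ENSG00000135750.14, chr1:233614004-233672512, plus strand) was at 6.04, 5.12 and 5.43 scaled counts in shMMP9, against 26.2, 30.6 and 27.1 in shControl, a log2 change of -2.15 (SE 0.0944, adjusted p = 4.77e-10). KCNK6 (TWIK-2; ENSG00000099337.4, chr19:38319844-38332076, plus strand), its nearest relative, stood at 2.45, 1.11 and 2.59 in shMMP9 and at 11.4, 11.2 and 10.7 in shControl (log2 change -2.03, SE 0.174, adjusted p = 4.01e-07). Neither gene had overlapping groups. KCNK2 (TREK-1), a mechanosensitive leak channel, fell (change -0.999 in log2(scaled count + 1), which understates so weak a gene), with 0.2 ± 0.147 in shMMP9 and 1.39 ± 0.215 in shControl. The acid-sensitive KCNK5 (TASK-2) and KCNK3 (TASK-1) rose, KCNK5 to 17.1 ± 1.34 in shMMP9 against 9.11 ± 1.18 in shControl and KCNK3 to 1.81 ± 0.383 against 0.719 ± 0.347.

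Inward rectifiers pass potassium more easily into the cell than out of it. Of 7 tested, 1 (14.3%) rose and 4 (57.1%) fell, beside 25% and 32.5% of all genes tested. KCNJ8 (Kir6.1; ENSG00000121361.3, chr12:21764955-21775581, minus strand), the pore of a channel gated by ATP, had 1 estimated read in each shMMP9 library, against 203, 246 and 219 reads in shControl. Scaled for depth, that was 213-fold lower (exact 95% interval 72.7 to 1038, counting error only), and the fitted log2 change was -3.08 (SE 0.120, adjusted p = 1.49e-10). No value in the table is below 1 estimated read, so these are its lowest possible values, and the interval takes them as counted reads and does not cover a lower true level. KCNJ11 (Kir6.2), which forms the same kind of ATP-gated channel, fell by 0.47 and was weaker in shControl, with 0.363 ± 0.179 in shMMP9 and 0.885 ± 0.247 in shControl; it lost the call without shMMP9 replicate 2 (adjusted p = 0.0655). KCNJ10 (Kir4.1) was the rise, at 1.48 ± 0.236 in shMMP9 and 0.685 ± 0.108 in shControl. KCNJ12 fell by 0.46, but it has near-identical copies in the genome and its reads were fractional in most libraries, so its value is uncertain.

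Auxiliary potassium channel subunits held 2 rises and 3 falls of 11 tested. KCNE3, a small single-span subunit, had 3, 3 and 1 estimated reads in shMMP9, against 20, 28 and 15 reads in shControl, 8.63-fold lower after scaling (exact 95% interval 3.95 to 22.3). KCNAB2, a cytoplasmic beta subunit, rose by 0.19 with overlapping groups, and leaving out shMMP9 replicate 2 or 3 or shControl replicate 1 or 3 ended that call (adjusted p up to 0.118). The noncoding KCNQ1OT1 rose by 0.94, with 4.94, 4.52 and 6.24 scaled counts in shMMP9 and 2.17, 2.21 and 2.28 in shControl.

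**Figure D3:**
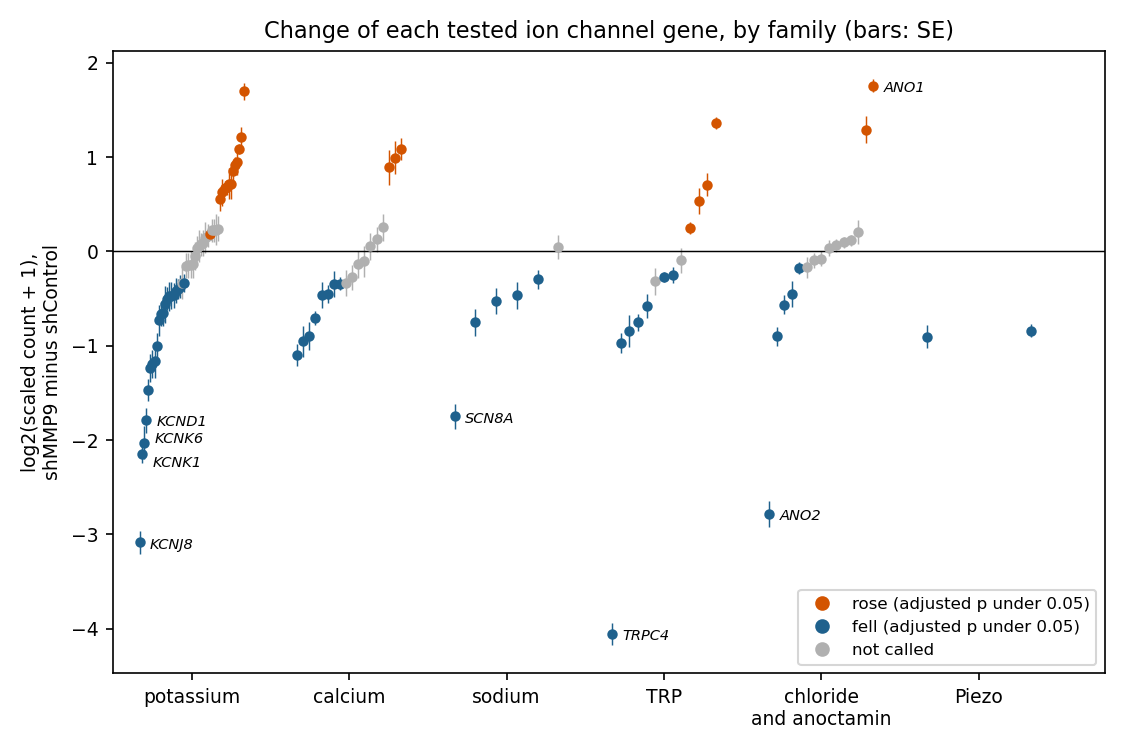
Each point is a tested ion channel gene, placed by family along the x axis and by its change in log2(scaled count + 1), shMMP9 minus shControl, on the y axis, with bars of 1 SE; colour gives the call. Potassium, TRP and chloride or anoctamin genes lie on both sides of 0, while all 5 called sodium channel genes and both Piezo genes lie below it.

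Of 18 tested voltage-gated calcium channel genes, 3 rose and 8 fell. Of the 7 pore-forming subunits among them, 2 rose and 2 fell. CACNA1D (Cav1.3; ENSG00000157388.16, chr3:53328963-53813733, plus strand), an L-type pore that opens at comparatively negative potentials, was at 6.27, 6.33 and 5.64 scaled counts in shMMP9, against 2.46, 2.31 and 2.24 in shControl (log2 change 1.09, SE 0.115, adjusted p = 3.20e-06). CACNA1B (Cav2.2), the N-type pore, rose to 3.42, 3.21 and 3.69 in shMMP9, against 1.03, 0.780 and 2.05 in shControl, a ratio of means of 2.67 (change 0.99 in log2(scaled count + 1)). The other L-type pores CACNA1C (Cav1.2) and CACNA1S (Cav1.1) were below 1 scaled count in every library. CACNA1S fell by 0.46, and CACNA1C by 0.35 with an adjusted p of 0.0491, a call that was lost without shMMP9 replicate 1 or 2 or shControl replicate 1 or 2 and under both other scalings (adjusted p up to 0.192).

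Among the auxiliary calcium channel subunits, 1 rose and 6 fell of 11 tested. CACNA2D1, an extracellular alpha2delta subunit that raises the number of channels at the surface, was at 3.93, 5.15 and 4.47 in shMMP9, against 9.66, 10.7 and 12.1 in shControl, with no overlap (log2 change -1.10, SE 0.120, adjusted p = 4.36e-06). Its relative CACNA2D3 was the rise, at 2.16 ± 0.791 in shMMP9 and 0.688 ± 0.282 in shControl. CACNB3, a cytoplasmic beta subunit and the calcium channel gene highest per transcript length, was at 32.8, 32.8 and 33.1 in shMMP9, against 38.7, 41.3 and 46.0 in shControl, a log2 change of -0.34 (SE 0.0676, adjusted p = 0.000737). CACNB1 also fell, by 0.45. The gamma subunits CACNG6, CACNG7 and CACNG8, which lie side by side on chromosome 19, all fell; CACNG7 and CACNG8 are better known for serving AMPA-type glutamate receptors. CACNG8 averaged 23.2 ± 2.44 in shMMP9 and 38.3 ± 0.702 in shControl (log2 change -0.71, SE 0.0749, adjusted p = 3.24e-06).

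Of 6 tested sodium channel genes, 5 fell and none rose. SCN8A (Nav1.6; ENSG00000196876.15, chr12:51590266-51812864, plus strand), a pore known from axons, was at 3.96, 4.20 and 2.84 scaled counts in shMMP9, against 15.1, 12.7 and 15.98 in shControl (log2 change -1.75, SE 0.132, adjusted p = 1.17e-07). Its groups lay well apart. SCN2A (Nav1.2) averaged 1.79 ± 0.313 in shMMP9 and 3.70 ± 0.643 in shControl, a log2 change of -0.75 (SE 0.141, adjusted p = 0.000504). The beta subunit SCN4B fell by 0.46 (adjusted p = 0.0121) and lost the call without shMMP9 replicate 2 (0.0540). Without that library, 3 sodium channel genes fell. SCN3A was not called, at 0.585 ± 0.0383 in shMMP9 and 0.535 ± 0.125 in shControl. The beta subunit SCN3B, below the filter on low values, had higher values in each shMMP9 library (0.317 to 0.665) than in any shControl library (0.0650 to 0.187), and it passed as a rise when no filter was used.

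Of 13 tested TRP genes, 4 rose and 7 fell. TRPC4 (ENSG00000133107.14, chr13:37636636-37870425, minus strand), a calcium-permeable channel downstream of phospholipase C, had the largest change of all the ion channel genes tested. It had 1, 1 and 2 estimated reads in shMMP9, against 479, 464 and 459 reads in shControl. Scaled for depth, TRPC4 was 336-fold lower in shMMP9 (exact 95% interval 131 to 1235, counting error only), and the fitted log2 change was -4.05 (SE 0.118, adjusted p = 1.08e-11). As for KCNJ8, the interval takes values at or near the table's lowest as counted reads. The gene was thus near the lowest value that the table shows in every shMMP9 library and clearly expressed in every shControl library. All genes tested on chromosome 13 had a median change of 0.19. Such a median does not describe a single locus, and the part of the chromosome in the fall of TRPC4 was not tested. Its partner TRPC1 fell by 0.58, with 6.15 ± 0.559 in shMMP9 and 9.76 ± 1.76 in shControl. TRPC4AP, the binding protein, was at 77.7, 75.3 and 74.0 in shMMP9 and 85.7, 92.9 and 95.3 in shControl, a small fall (log2 change -0.27, SE 0.0535, adjusted p = 0.000824).

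TRPV4 (ENSG00000111199.10, chr12:109783085-109833401, minus strand), a calcium-permeable channel that opens on cell swelling and warmth, moved the other way. It was at 60.5, 59.2 and 64.4 scaled counts in shMMP9, against 22.8, 22.6 and 24.4 in shControl, a log2 change of 1.36 (SE 0.0608, adjusted p = 5.61e-10). TRPV2 fell by 0.25 (44.3, 40.5 and 46.2 in shMMP9, 44.6, 57.1 and 55.3 in shControl), but its groups overlapped through shControl replicate 1. That fall missed the threshold without shMMP9 replicate 1 or 2 or shControl replicate 2 or 3, and with either other scaling (adjusted p up to 0.103). The heat and capsaicin receptor TRPV1 was not called, and 31.9% of its exonic bases overlap another gene on its own strand, so reads may be shared.

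All 6 TRPM genes listed were called, 3 as rises and 3 as falls, where 57.5% of all genes tested were called. TRPM1 and TRPM5 were not listed. TRPM2, a channel opened by ADP-ribose under oxidative stress, was at 10.3, 9.48 and 11.4 in shMMP9, against 18.3, 23.1 and 22.6 in shControl (log2 change -0.97, SE 0.102, adjusted p = 3.08e-06). TRPM4, which lets calcium inside the cell gate the entry of sodium, stood at 15.8, 12.9 and 14.8 in shMMP9 and at 22.8, 26.0 and 26.4 in shControl (log2 change -0.75, SE 0.0903, adjusted p = 1.07e-05). TRPM6, a magnesium channel with a kinase domain, fell by 0.84, while its relative TRPM7 rose by 0.25, with 64.3 ± 3.56 in shMMP9 and 54.0 ± 4.15 in shControl. TRPM8, the cold and menthol receptor, averaged 4.83 ± 0.614 in shMMP9 and 2.56 ± 0.116 in shControl (log2 change 0.71, adjusted p = 0.000281), and TRPM3 rose by 0.53.

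Anoctamins, which include the calcium-activated chloride channels, held the largest rise and the third largest fall. Of 9 tested, 2 (22.2%) rose and 2 (22.2%) fell, beside 25% and 32.5% of all genes tested. ANO1 (TMEM16A; ENSG00000131620.17, chr11:70078302-70189528, plus strand), a calcium-activated chloride channel, was at 47.1, 47.7 and 50.9 scaled counts in shMMP9, against 13.9, 14.3 and 12.8 in shControl. The groups were far apart, with a log2 change of 1.76 (SE 0.0691, adjusted p = 1.58e-10). The antisense gene ANO1-AS1 overlaps 10.7% of its exonic bases. ANO2 (TMEM16B; ENSG00000047617.14, chr12:5531869-5946232, minus strand), the closest relative and likewise a calcium-activated chloride channel, went down: it had 4, 10 and 7 estimated reads in shMMP9, against 197, 226 and 233 reads in shControl. Scaled for depth ANO2 was 29.9-fold lower (exact 95% interval 19.4 to 48.7, counting error only), with a fitted log2 change of -2.78 (SE 0.134, adjusted p = 1.24e-09). ANO4 rose to 3.53, 2.42 and 3.58 in shMMP9, against 0.820, 0.552 and 0.709 in shControl (log2 change 1.29, SE 0.145, adjusted p = 5.64e-06).

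ANO6, ANO10 and ANO8, the anoctamins highest per transcript length in shControl, were not called. ANO6 (TMEM16F), a lipid scramblase, was at 90.9, 96.3 and 87.9 in shMMP9, against 81.1, 81.4 and 91.2 in shControl (log2 change 0.12, adjusted p = 0.105), and it passed as a rise under median-of-ratios scaling (0.17, adjusted p = 0.0220) and total-read scaling (0.18, adjusted p = 0.0189) and without shControl replicate 3 (0.17, adjusted p = 0.0315). Of the 6 CLC genes, 3 fell and none rose. Those that fell were CLCN3, CLCN4 and CLCN5. CLCN6 was not called, at 18.0 ± 0.723 in shMMP9 and 19.0 ± 1.30 in shControl (log2 change -0.08, adjusted p = 0.422). CLCN4 was at 7.12, 7.61 and 5.98 in shMMP9, against 13.6, 13.8 and 13.6 in shControl (log2 change -0.90, SE 0.102, adjusted p = 6.01e-06), and CLCN5 fell by 0.56. CLCN3 fell by 0.17 (56.3, 61.2 and 52.5 in shMMP9, 62.2, 64.5 and 65.1 in shControl) and missed the threshold without shMMP9 replicate 1 or 3 or shControl replicate 2 or 3, and with either other scaling (adjusted p up to 0.124). The lysosomal exchanger CLCN7 was at 82.5, 77.4 and 87.2 in shMMP9 and 72.8, 79.9 and 77.7 in shControl; it was not called, but it passed as a rise under both other scalings (adjusted p = 0.0401 and 0.0282). Without shMMP9 replicate 3 or shControl replicate 3, the falls of this family numbered 3 in place of 5.

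Both Piezo genes, which encode cation channels opened by membrane stretch, fell. PIEZO1 (ENSG00000103335.22, chr16:88715338-88785220, minus strand) was at 129, 118 and 138 scaled counts in shMMP9, against 207, 245 and 238 in shControl, a log2 change of -0.84 (SE 0.0693, adjusted p = 2.80e-07). Its reads were fractional in every library, and 20.2% of its exonic bases overlap genes on the other strand. PIEZO2 was at 1.34, 1.15 and 1.26 in shMMP9, against 3.20, 2.86 and 3.58 in shControl (log2 change -0.90, SE 0.125, adjusted p = 3.88e-05). PIEZO2 lies on chromosome 18, where all genes tested had a median change of -0.42. The part of the chromosome in the fall of PIEZO2 was not tested.

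Levels were then compared between genes per kilobase of transcript, using the median length of each gene's annotated transcripts. KCNN4 stood first in shMMP9 at 89.9 scaled counts per kb, and PIEZO1 first in shControl at 49.3. In shMMP9 the next were KCNG1 at 29.1, PIEZO1 at 27.5, TRPV4 at 24.6 and TRPC4AP at 23.8 scaled counts per kb. In shControl PIEZO1 was followed by KCNN4 at 42.1, KCNG1 at 37.1, TRPC4AP at 28.7 and CACNB3 at 18.8 scaled counts per kb. By this length the order differed at the top: KCNN4 stood above PIEZO1 in every shMMP9 library and below it in every shControl library. That order depends on the length taken for each gene. PIEZO1 had a median transcript of 4.67 kb but 11292 exonic bases, and KCNN4 one of 2.03 kb but 3408 exonic bases. No other length was tried. TRPV4 stood above KCNK1 in shMMP9 and below it in shControl, with 24.6 and 2.56 scaled counts per kb in shMMP9 and 9.34 and 12.9 in shControl.

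**Figure D4:**
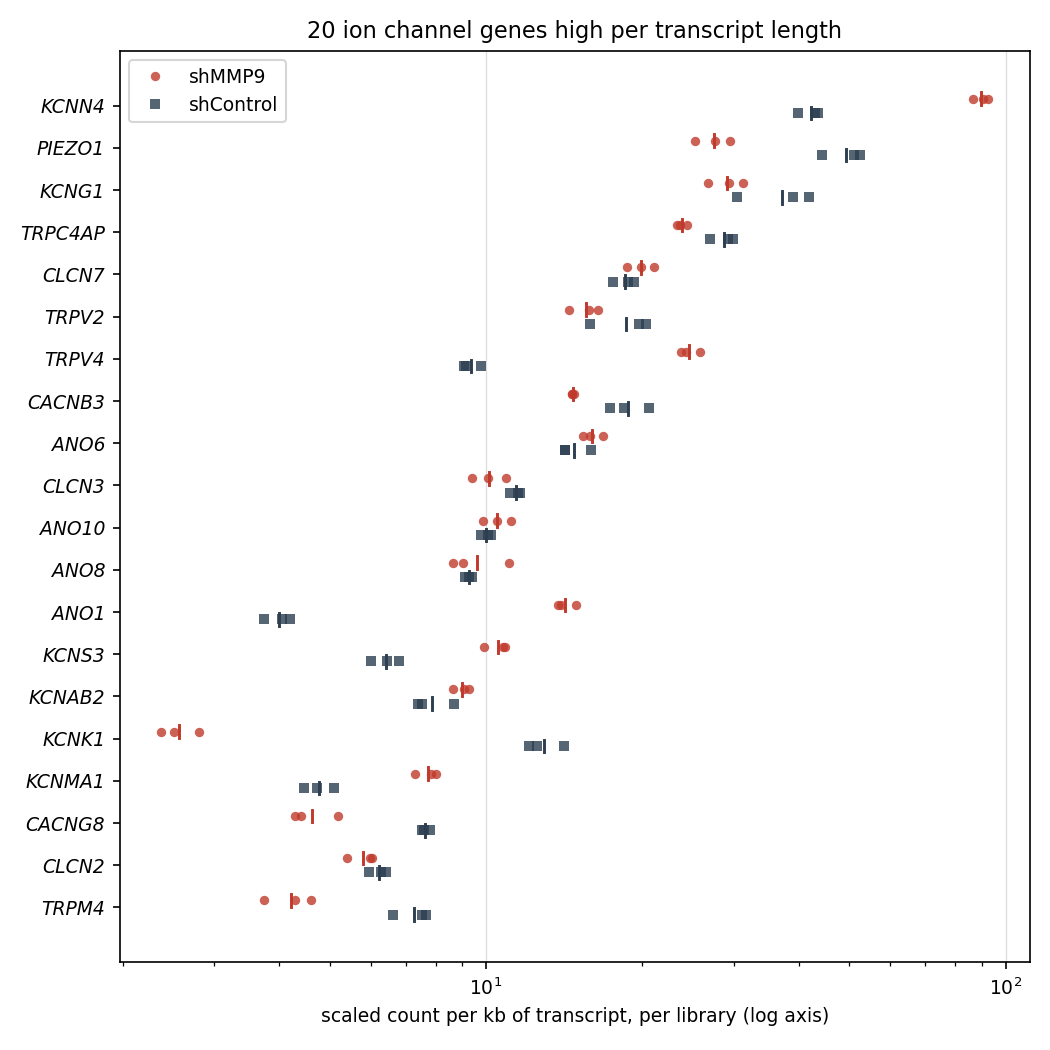
Scaled counts per kb of transcript in each library (log x axis) for 20 ion channel genes that rank high by this measure; red circles are the shMMP9 libraries, dark squares the shControl libraries and vertical ticks the group means. KCNN4 averages 89.9 in shMMP9 and 42.1 in shControl, PIEZO1 27.5 and 49.3; neighbours such as CLCN7 and TRPV2 in shControl overlap.

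Summed scaled counts over a family follow its strongest genes. Potassium channel genes summed to 483 ± 16.6 in shMMP9 and 396 ± 24.3 in shControl, higher in each shMMP9 library although more of these genes fell than rose. KCNN4 alone, at 182 ± 6.20 in shMMP9 and 85.5 ± 3.99 in shControl, differed by more than these sums did. Calcium channel genes summed to 90.02 ± 2.8 in shMMP9 and 121 ± 5.82 in shControl, sodium channel genes to 17.02 ± 0.849 and 33.1 ± 2.69, and the Piezo genes to 129 ± 9.87 and 234 ± 20.2, all lower in each shMMP9 library. Chloride and anoctamin genes summed to 393 ± 5.53 in shMMP9 and 370 ± 11.1 in shControl, without overlap, and TRP genes to 291 ± 7.44 and 307 ± 11.3, with overlap. ANO1 alone (48.6 in shMMP9, 13.7 in shControl) differed by more than the chloride and anoctamin sums did. TRPC4AP, not a channel subunit (75.7 and 91.3), differed by nearly as much as the TRP sums. Over all 117 genes the sums, 1403 ± 36.9 in shMMP9 and 1461 ± 67.1 in shControl, overlapped.

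The 13 genes below the filter on low values were ANO5, CACNA1E, KCNC1, KCND2, KCND3, KCNH2, KCNJ15, KCNK13, KCNK15, KCNN2, SCN3B, SCN9A and TRPC6, with at most 0.991 scaled counts in any library, and they were not tested. Besides SCN3B, their groups did not overlap for CACNA1E (0.238 to 0.470 in shMMP9, 0.0325 to 0.0747 in shControl), KCNC1 (0.336 to 0.991 and 0.149 to 0.195) and TRPC6 (0.0369 to 0.168 and 0.187 to 0.534).

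Promoter sequence was described for the 87 of 117 channel genes that have an entry in the RefSeq promoter table (GRCh38.p14), over the 250 bases before the start. Promoters of the genes that rose (18 with an entry) had a median GC content of 74.8% and a median CpG ratio, observed over expected, of 0.82. The promoters of genes that fell (36 with an entry) stood at 66.6% and 0.63, those of tested genes not called (22) at 66% and 0.63, and all 27305 promoters of the table at 58% and 0.56. Motifs were searched on both strands as exact letters. The GC box (GGGCGG) was in 14 of 18 promoters of genes that rose and in 27 of 36 of genes that fell, beside 42.3% of all promoters. It was also in 14 of 22 promoters of tested channel genes not called. Counts of the other motifs are given for genes that rose and fell. The TEAD motif (GGAATG) was in 1 of 18 and 5 of 36 (11.9% of all promoters), the AP-1 motif (TGANTCA) in 0 and 2 (6.6%), the TATA box (TATAAA) in 1 and 3 (11.1%), and the core of the MITF-bound M-box (TCATGTG) in 0 and 2 (2.58%). A match says only that the letters are there.

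Promoters are printed for the largest rises and falls among the 26 channel genes whose RefSeq start lies within 50 bases of the annotated gene start, to show how unlike they are in composition. Capitals mark motif matches, all of them GC boxes except the TEAD matches GGAATG and CATTCC of KCNK6. For the rises these are CACNA1B (chr9:137877532-137877781, plus strand, 85.2% GC, 5 GC boxes) and KCNN3 (chr1:154870282-154870531, minus strand, 62% GC, 1 GC box). For the falls they are ANO2 (chr12:5946233-5946482, minus strand, 46.4% GC, no match) and KCNK6 (chr19:38319595-38319844, plus strand, 59.6% GC, 2 TEAD matches and 1 GC box).
CACNA1B: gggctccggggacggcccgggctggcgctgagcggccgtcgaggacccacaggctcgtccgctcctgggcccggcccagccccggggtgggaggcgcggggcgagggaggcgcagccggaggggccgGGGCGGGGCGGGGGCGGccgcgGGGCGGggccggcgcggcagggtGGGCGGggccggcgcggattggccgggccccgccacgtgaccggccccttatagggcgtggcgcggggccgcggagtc
KCNN3: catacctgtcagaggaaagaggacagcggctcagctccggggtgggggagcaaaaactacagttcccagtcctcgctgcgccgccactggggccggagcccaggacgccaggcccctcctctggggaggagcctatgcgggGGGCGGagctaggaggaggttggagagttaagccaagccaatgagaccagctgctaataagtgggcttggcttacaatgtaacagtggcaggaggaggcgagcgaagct
ANO2: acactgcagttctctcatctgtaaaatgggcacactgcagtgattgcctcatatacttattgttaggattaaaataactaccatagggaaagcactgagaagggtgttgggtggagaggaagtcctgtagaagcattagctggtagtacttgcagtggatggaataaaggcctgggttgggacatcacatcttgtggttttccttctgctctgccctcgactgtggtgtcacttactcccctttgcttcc
KCNK6: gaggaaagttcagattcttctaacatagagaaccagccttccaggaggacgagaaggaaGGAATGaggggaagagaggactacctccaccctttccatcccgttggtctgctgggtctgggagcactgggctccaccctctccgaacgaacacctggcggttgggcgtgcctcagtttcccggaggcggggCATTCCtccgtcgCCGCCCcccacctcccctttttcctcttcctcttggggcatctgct
ANO2's upstream sequence was the poorest of these in CpG (ratio 0.0751) and CACNA1B's the richest (0.90).

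Channel genes outside the symbol rule were counted from a list of other ion channels (gap junction, acid-sensing, purinergic, volume-regulated, endolysosomal and further channels). Of 86 genes on it 59 were listed and 55 tested, and 14 (25.5%) rose and 24 (43.6%) fell, beside 25% and 32.5% of all genes tested. GJB1, the gap junction protein connexin 32, averaged 14.0 ± 0.280 scaled counts in shMMP9 and 2.24 ± 0.317 in shControl (log2 change 2.21, SE 0.112, adjusted p = 2.18e-09). GJC1, connexin 45, averaged 47.6 ± 0.587 and 95.3 ± 3.35 (log2 change -0.99), and TPCN1, a cation channel of endosomes and lysosomes, 25.2 ± 1.11 and 49.4 ± 3.37 (log2 change -0.94).

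A list of genes for calcium entry, calcium stores and calcineurin signalling, which act on the calcium that many of these channels pass, had 50 of its 57 genes in the table. Of 49 tested, 19 (38.8%) rose and 19 (38.8%) fell, beside 25% and 32.5% of all genes tested. NFATC2, a transcription factor that calcineurin switches on, averaged 124 ± 1.82 scaled counts in shMMP9 and 20.7 ± 1.77 in shControl (log2 change 2.53, SE 0.0638, adjusted p = 3.14e-12). ATP2B4, a calcium pump of the plasma membrane, rose as well (169 ± 3.37 in shMMP9, 80.5 ± 1.99 in shControl), while SLC8A1, the sodium-calcium exchanger, fell (4.60 ± 0.329 and 20.3 ± 0.642).

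Markers of other cells that use such channels were read beside these results. Of 13 neuronal markers 11 were listed, 5 rose and 2 fell, and they summed to 465 to 507 scaled counts in shMMP9 and 302 to 373 in shControl, most of it TUBB3; STMN2 and ELAVL3 were not listed. Of 10 muscle markers 2 were listed, with MYH6, MYH7, DES and CKM among those not listed, and the sums ran from 2.18 to 3.19 in shMMP9 and 3.54 to 4.17 in shControl. All 5 endothelial markers were listed, 2 rose and 2 fell, and they summed to 21.8 to 25.3 in shMMP9 and 55.2 to 64.3 in shControl, chiefly through TIE1. The 7 fibroblast markers (1 rose, 4 fell) summed to 27.0 to 29.9 in shMMP9 and 46.1 to 52.1 in shControl, the keratinocyte markers (3 of 5 listed, 2 rose) to 127 to 136 and 70.0 to 81.6, and the leukocyte markers (2 of 5 listed, with PTPRC and CD3E among those not listed) to 97.7 to 100.2 and 113 to 135. The part of these shifts in the channel results was not tested.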

How the data were processed

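Total RNA from 6 A375 libraries was sequenced, with groups and replicate numbers as labelled. The submitters' processing notes name STAR 2.6.1d, Partek and the hg38 build; which counter, annotation and strand setting was used is not given in the sources used here. Although its name calls them counts, the deposited table's values (1 per gene and library) are on a log2 scale: they showed log2(scaled count + 1), with the 75th percentile of the scaled counts at 45.3 to 45.4 in every library. Dividing by the step of the low values gave estimated reads, whole to within 0.01 for 64.5 to 67.8% of values in a library; as the rest are fractions, no count model was used. Of 18539 genes, 1345 were left out because they lacked 10 estimated reads at the median depth in 3 libraries or 15 in total.

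The log2 values were tested with limma 3.58.1 (R 4.3.3, variance trend, group only, no further scaling), with p-values adjusted over 17194 genes by the Benjamini-Hochberg method. The fit was tested on simulated data, with changes placed only in genes above the median level. Recovery of changes in weaker genes, most channel genes among them, was not tested. Intervals for genes with few reads are exact binomial ones at 95% on summed reads and cover counting error only. Positions, exon overlaps and transcript lengths come from GENCODE 29 (GRCh38), which matched all 117 ion channel genes. Summaries used Python 3.11.15, pandas 2.3.3 and scipy 1.17.1, and figures matplotlib 3.10.9.

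The ion channel genes, the other lists and the markers were chosen with earlier results of these data known, so no p-value was adjusted over a list alone and no list was tested as a set. Genes were named by rule: MMP9; channel genes called with a 2-fold change; the 4 with the smallest adjusted p and the 3 highest per kb in each family; and 3 of each other list by smallest p. Further channel genes were named after their values were seen; a few genes are left unreported here. Alternatives were a replicate block, each library left out, 2 other scalings, no filter, pseudocounts of 0.25 and 4, limma-voom and a threshold of 0.01.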

Additional observations from a re-analysis of the deposited data

How the results depend on the processing

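Of the 70 channel genes called, 57 kept call and direction in all 14 alternatives, among them all 19 past 2-fold; the others include KCNG1, KCNG3, KCNN1, KCNJ4, KCNJ11, KCNAB1, KCNAB2, CACNA1C, SCN4B, TRPV2, CLCN3 and ANO9, and the cause of each loss was not tested. Without 1 library each, 41 to 46 channel genes fell and 21 to 24 rose; falls of sodium channel genes numbered 3 to 5 and those of chloride and anoctamin genes 3 to 5. The number past 2-fold depends on the scale by construction, since a smaller pseudocount shrinks weak genes less: 21 fell and 13 rose with a pseudocount of 0.25, 7 and 4 with a pseudocount of 4, and 30 and 14 with limma-voom on estimated reads. The median change of the tested channel genes was -0.28 with a pseudocount of 0.25 and -0.33 with limma-voom. Without a filter 1 sodium channel gene rose, SCN3B. Under median-of-ratios and under total-read scaling 4 chloride and anoctamin genes rose, and the median change of all genes tested was 0.00159 under total-read scaling. At an adjusted p under 0.01, 3 sodium channel genes, 3 chloride and anoctamin genes and 5 pump and cotransporter genes fell. Same-numbered replicates did not clearly deviate together (correlations 0.0402, -0.1305 and -0.0258), and differently numbered ones ran from -0.1219 to 0.1693. The labels do not say whether numbers pair the libraries, and these correlations cannot settle it. With a replicate block in limma 47 channel genes fell and 22 rose, and CACNA1C lost its call (adjusted p = 0.0651). Genes with few reads limit the precision: 45 of the 117 channel genes averaged below 1 scaled count.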

Other observations

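Pumps and cotransporters of sodium, potassium and chloride, which build the gradients that these channels run down, were counted as a further list. Of the 48 genes on that list 37 were listed and 34 tested, and 8 rose and 8 fell, beside 25% and 32.5% of all genes tested. SLC12A2, the sodium-potassium-chloride cotransporter NKCC1, averaged 50.3 ± 1.79 in shMMP9 and 19.9 ± 1.004 in shControl (log2 change 1.30, adjusted p = 1.48e-09 by limma, SD over 3 libraries each), and SLC9A7, a sodium-proton exchanger of the Golgi, 19.6 ± 0.816 and 40.2 ± 1.71 (log2 change -1.003).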
